A study of Mus musculus with 6 samples.

Results

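The 10 genes described here encode heat shock proteins of the cytosol: the Hsp70 proteins Hspa8, Hspa1a and Hspa1b, the Hsp110 proteins Hsph1 and Hspa4l, the J-domain proteins Dnaja1 and Dnajb1, the Hsp90 proteins Hsp90aa1 and Hsp90ab1, and the small heat shock protein Hspb1. They were taken by symbol from the 55421 genes of the deposited tables, each was found once, and all 10 were among the 32905 genes tested. They were selected on their measured RNA levels at 24 against 6 months in these same mice, so their age differences are given as a description and without a test. The series holds RNA-seq of the cerebral cortex of 6 wild-type male C57BL/6J mice, of which mice 10, 11 and 17 were 6 months old and mice 2, 4 and 5 were 24 months old. All had a standard diet and were placed under isoflurane before cervical dislocation, and animals with visible tumors had been set aside by the study. Libraries were made from 10 ng of total RNA of the powdered tissue with a low-input kit and read from 1 end over 75 bases.

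Heat shock proteins are molecular chaperones, which bind unfolded stretches of other proteins, keep them from clumping and help them fold. An Hsp70 protein is loaded by a J-domain protein, releases its client with the help of an Hsp110 protein, and can pass it on to Hsp90, while small heat shock proteins hold clients without using ATP. In neurons Hspa8 also strips the clathrin coat from vesicles, and in stressed cells heat shock factor 1 switches on the inducible members, Hspa1a and Hspa1b above all.

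The upstream sequences of 3 members known as heat-inducible are shown, though others, such as Dnajb1, are heat-inducible too. They are shown because Hspa1a and Hspa1b, which stood apart from each other in the age comparison, share almost the same one. Each stretch is the 150 bases before the start in RefSeq's promoter windows (GRCm38.p6), read 5′ to 3′ on the strand of the gene. Capitals mark each pair of facing heat shock units, GAANNTTC or TTCNNGAA, the letters that heat shock factors are known to bind when several stand in a row. The Hspa1a stretch is chr17:34972157-34972306 on the minus strand, the Hspa1b stretch chr17:34959239-34959388 on the minus strand, and the Hspb1 stretch chr5:135887769-135887918 on the plus strand.
Hspa1a: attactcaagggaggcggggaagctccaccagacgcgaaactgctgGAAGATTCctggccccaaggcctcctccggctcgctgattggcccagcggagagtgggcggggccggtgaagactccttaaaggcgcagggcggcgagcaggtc
Hspa1b: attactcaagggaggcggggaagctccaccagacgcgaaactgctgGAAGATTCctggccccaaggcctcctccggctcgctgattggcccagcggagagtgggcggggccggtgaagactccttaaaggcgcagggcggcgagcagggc
Hspb1: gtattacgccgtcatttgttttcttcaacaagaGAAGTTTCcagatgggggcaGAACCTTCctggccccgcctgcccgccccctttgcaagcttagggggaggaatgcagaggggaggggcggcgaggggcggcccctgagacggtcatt

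The Hspa1a and Hspa1b stretches differed at 1 of the 150 positions and their whole windows of 300 bases at 4. Both held 1 pair of facing units, beginning 104 bases before the start, and 1 match to CCAAT on the other strand. The Hspb1 stretch held 2 pairs, beginning 117 and 97 bases before the start.

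Promoter windows were found for 7 of the 10 members, 11 windows in all, and those of Hspa8, Hsp90aa1 and Hsp90ab1 were not analysed here. A pair of facing units, searched on both strands, was present in a window of 5 members (Hspa1a, Hspa1b, Hspb1, Hsph1 and Dnaja1), and in neither window of Dnajb1 nor in that of Hspa4l. Among the 32851 promoter windows of all genes, 15.1% held such a pair. A run of 3 alternating units, which is GAANNTTC with GAA or TTCNNGAA with TTC after 2 more bases and which was also searched on both strands, was rarer, with 0.603% of all windows, and Hsph1 was the only member with a match (TTCTGGAAAGTTC, within the first 50 bases after the start); it overlaps its pairs. CCAAT was found in windows of Dnaja1, Dnajb1, Hspa1a, Hspa1b and Hsph1 and in 37.4% of all windows, and TATAAA in none of the members' windows and in 13.6% of all. These matches are letters in a window and not measured binding.

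Per length of transcript, the 10 genes spanned a wide range of TPM (transcripts scaled by length and to the same sum in each mouse, as computed by the authors). Hsp90ab1, the constitutive cytosolic Hsp90, had the highest value, with 1400 TPM on average over the 6 mice (lowest 1249, highest 1634), the rank 54 of all genes. Hspa8, the constitutive cytosolic Hsp70, followed with 945 TPM (810 to 1123, rank 96), and its range did not overlap that of Hsp90ab1. Reads that fit several genes equally limit this order, as they fall under a mapping quality filter described below. Of the 69-base windows (stretches of read length) in its transcripts, 65.4% occur in no other gene for Hspa8, against 98.9% for Hsp90ab1. The TPM values are not corrected for this, so they cannot decide whether Hsp90ab1 or Hspa8 had more transcripts. Together both genes made up 73.3% ± 0.591 of the summed TPM of the 10 genes in the young and 73.8% ± 0.231 in the old mice (SD, n = 3 mice of each age).

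Below them Hsp90aa1 (264 TPM, 241 to 303) and Hsph1 (239 TPM, 201 to 284) had ranges over the 6 mice that overlapped. They also overlapped at 6 months, but at 24 months Hsp90aa1 (241, 255 and 252 TPM) lay above Hsph1 (204, 212 and 201 TPM) in every mouse. The ranges of Dnajb1 (155 TPM, 111 to 196) and Dnaja1 (99.0 TPM, 87.2 to 114) overlapped over the 6 mice and not within an age, as Dnajb1 was the higher in each mouse. Hspa4l lay apart from them at 70.8 TPM (54.5 to 81.3). The lowest 3 genes were at 10.4 TPM for Hspa1a (8.01 to 15.7), 4.36 TPM for Hspb1 (2.62 to 6.49) and 1.40 TPM for Hspa1b (1.11 to 1.76), each without overlap with its neighbours. In all, 7 of the 9 pairs of neighbours in this order had ranges over the 6 mice that did not overlap. The limit from reads that fit several genes, given for Hspa8 and Hsp90ab1, holds for Hsp90aa1 (56.2% of its windows in no other gene) beside Hsph1 (100%). It also holds for the low values of Hspa1a (37.2%), Hspb1 (53.0%) and Hspa1b (42.7%).

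**Figure D1:**
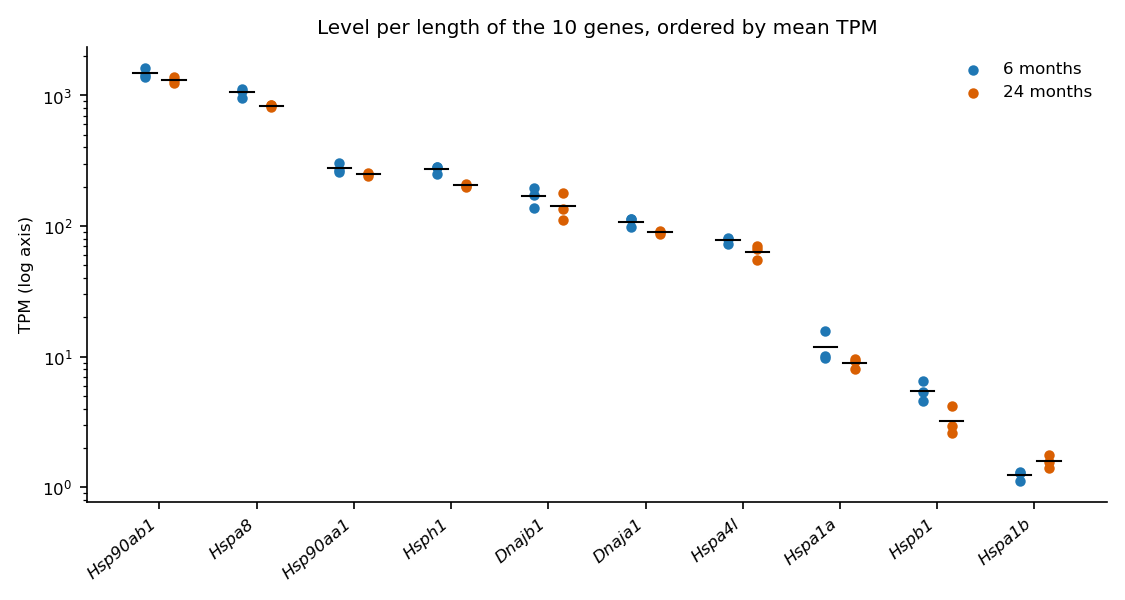
TPM of the 10 genes on a log axis, ordered by the mean over 6 mice; points are mice (6 months in blue, 24 months in orange) and black bars are the means at each age. Hsp90ab1 and Hspa8 stood above all others in every mouse, and Hspa1a, Hspb1 and Hspa1b lay below 16 TPM. The values are not corrected for reads that fit several genes.

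For the comparison of ages, counts were scaled to a common library size (CPM) with edgeR's TMM factors, and log2 fold changes (24 against 6 months, with their standard error, SE) were fitted over all genes. The library totals ran from 29495379 to 36494240 counts, and the TMM factors lay between 0.921 and 0.946 in the young and between 1.04 and 1.10 in the old mice, with 33974 to 35651 genes with a count in the 6-month libraries and 40208 to 43561 in the 24-month libraries. The fold changes had a median of 0.15 (log2) for all genes tested but -0.14 over the 15761 genes with a mean of at least 1 CPM and -0.23 over the 4406 genes with at least 50 CPM, so abundant genes were lower on the whole. Scaled by library totals alone, the last median was -0.038. Changes of the abundant members are therefore also given relative to the genes of at least 50 CPM. A change of scaling hardly touches this difference, since it moves all genes by nearly the same amount.

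With TMM scaling, the fitted value was lower at 24 months in 9 of the 10 genes, all but Hspa1b, and 8 of them had all 3 mice of 24 months below all 3 mice of 6 months. Over all genes tested 16.2% had the ages apart in this way, over the genes of at least 1 CPM 32.5% and over those of at least 50 CPM 54.7%. As the genes were chosen for this contrast, nothing is read from their count. The shares of abundant genes with a lower fold change, given below for single members, only describe their place for the same reason. Their median log2 fold change was -0.39, which lay 0.16 below the median of the genes of at least 50 CPM. In bulk tissue, fewer cells of a type and less RNA per cell cannot be told apart.

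**Figure D2:**
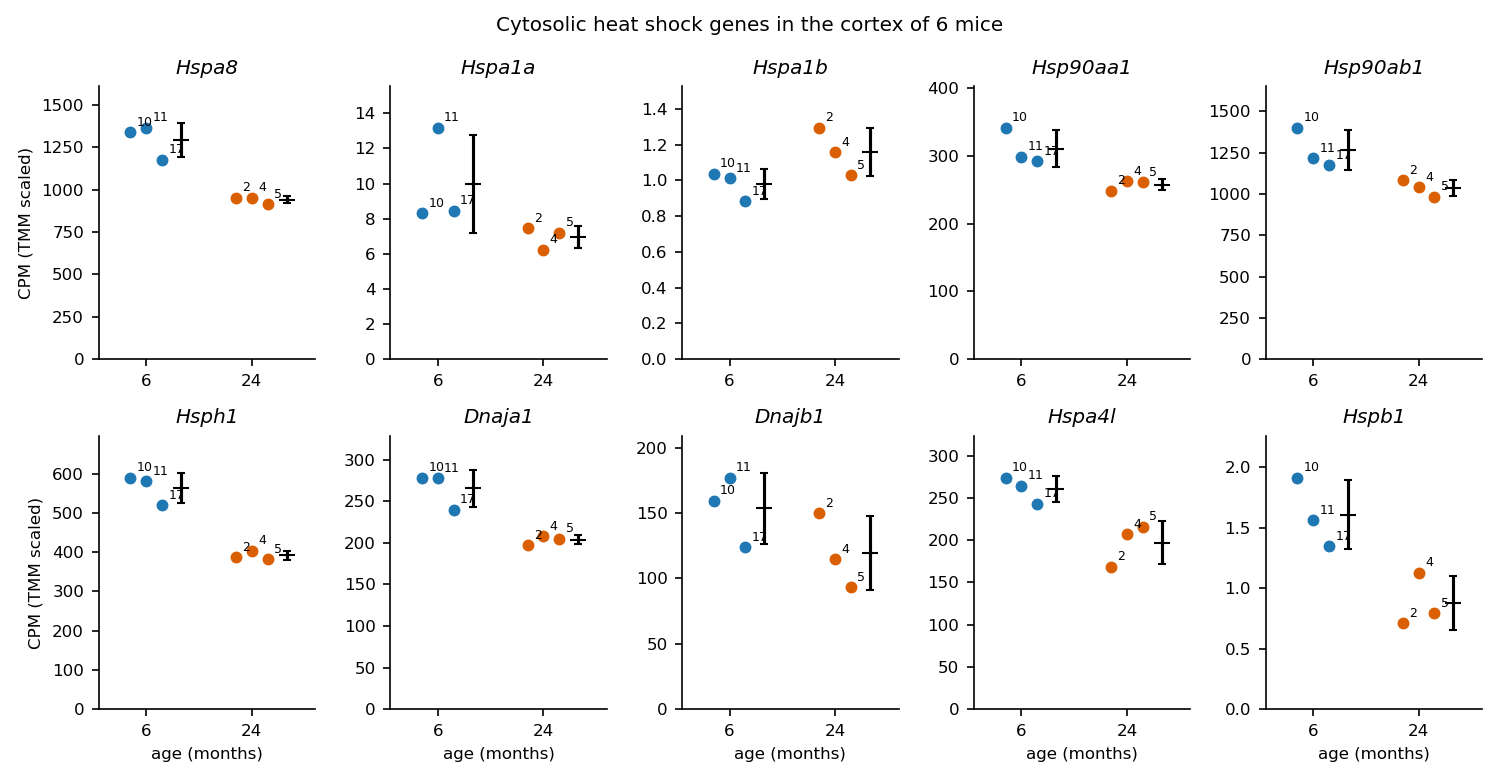
TMM-scaled CPM of each of the 10 genes in each mouse (numbers beside the points), with the mean and SD (n = 3) at each age in black; every axis begins at 0. The ages lay apart in 8 genes, overlapped in Dnajb1 and Hspa1b, and Hspa1b was the gene with the higher mean at 24 months.

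Among the Hsp70 genes, Hspa8 (ENSMUSG00000015656.17, chromosome 9 from 40800984 to 40810087, plus strand, GRCm38, up to 9 exons) was at 1337, 1365 and 1176 CPM in the 6-month mice 10, 11 and 17. In the 24-month mice 2, 4 and 5 it was at 953, 952 and 915 CPM. The old mice lay within 40 CPM of each other and below every young mouse. The means were 1293 ± 102 and 940 ± 21.8 CPM (SD, n = 3), and the log2 fold change was -0.46 (SE 0.089), or 27.3% lower. Relative to the genes of at least 50 CPM the change was -0.23, and 7.04% of those genes had a lower fold change. With the other scalings tried its value ranged from -0.46 to -0.27, and with each mouse left out from -0.52 to -0.38.

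Hspa1a (ENSMUSG00000091971.3, chromosome 17 from 34969190 to 34972156, minus strand), the first of the stress-inducible Hsp70 genes, has a single exon. Its values were 8.30, 13.2 and 8.46 CPM at 6 months and 7.46, 6.24 and 7.20 CPM at 24 months, on 216 to 455 counts. Mouse 11 stood far above the other young mice, and the ages came within 1 CPM of each other. The log2 fold change was -0.52 (SE 0.19) and became -0.23 without mouse 11. With library totals the ages of Hspa1a overlapped.

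Hspa1b (ENSMUSG00000090877.3, chromosome 17 from 34956436 to 34959238, minus strand), its neighbour 9951 bases away and also of 1 exon, encodes nearly the same protein. It was at 1.04, 1.01 and 0.885 CPM at 6 months and at 1.29, 1.16 and 1.03 CPM at 24 months. The ages overlapped by the smallest of margins, and with the deposited TPM or with library totals all old mice lay above all young mice. The log2 fold change was 0.24 (SE 0.22), on 29 to 42 counts a mouse.

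Read by read, Hspa1a and Hspa1b are hard to keep apart, because 54.0% of the read-length windows of Hspa1a transcripts occur in Hspa1b as well, and STAR gives reads that fit both equally a mapping quality below the minimum of 15 that the authors set for counting. In counts, Hspa1a was 8, 13.0 and 9.55 times Hspa1b in the 6-month mice and 5.76, 5.40 and 7 times in the 24-month mice, without overlap. Their counts summed as 1 gene gave a log2 fold change of -0.43. A further 564 of the 2967 exonic bases of Hspa1a lie under exons of Gm20481 on the other strand, and the stated counting used no strand.

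The Hsp110 proteins are the exchange factors that open Hsp70 for release of its client. Hsph1 (ENSMUSG00000029657.15, chromosome 5 from 149614287 to 149636376, minus strand, up to 19 exons), also called Hsp105, was at 590, 580 and 519 CPM at 6 months. At 24 months it was at 388, 404 and 383 CPM, and the lowest young mouse was over 100 CPM above the highest old one. Its log2 fold change of -0.52 (SE 0.087) was the lowest of the 7 members with a mean of at least 50 CPM, and 3.09% of the genes of that level had a lower fold change. It was -0.29 relative to the median of those genes. Hsph1 divided by Hspa8, which no scaling of libraries touches, was 0.261, 0.252 and 0.261 in TPM at 6 months and 0.241, 0.251 and 0.248 at 24 months. The ratio differed little between ages, although the old mice were all lower.

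Hspa4l (ENSMUSG00000025757.12, chromosome 3 from 40744495 to 40796103, plus strand, up to 19 exons), a second Hsp110 protein, was at 274, 265 and 243 CPM at 6 months and at 169, 207 and 216 CPM at 24 months. Mouse 2 was the lowest of the old mice. The log2 fold change was -0.40 (SE 0.11), or -0.17 relative to the genes of at least 50 CPM. Divided by Hspa8 in TPM, Hspa4l overlapped between the ages, with 0.0737 ± 0.00258 at 6 months and 0.0767 ± 0.0110 at 24 months (SD, n = 3).

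Of the J-domain proteins, which bring clients to Hsp70 and speed up its ATP use, Dnaja1 (ENSMUSG00000028410.13, chromosome 4 from 40722150 to 40737149, plus strand, up to 9 exons) was at 278, 278 and 240 CPM at 6 months. It was at 198, 208 and 205 CPM at 24 months, all below the young mice. The log2 fold change was -0.38 (SE 0.092), -0.15 relative to the genes of at least 50 CPM. Of its 8629 exonic bases, 608 also lie on exons of Smu1 on the other strand.

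Dnajb1 (ENSMUSG00000005483.10, chromosome 8 from 83608193 to 83612653, plus strand, up to 3 exons), the heat-inducible Hsp40, varied most within an age among the members above 50 CPM. Its values were 159, 177 and 124 CPM at 6 months and 150, 115 and 93.6 CPM at 24 months. Old mouse 2 was higher than young mouse 17, so the ages overlapped. The log2 fold change was -0.36 (SE 0.18), and it ran from -0.55 without mouse 2 to -0.21 without mouse 5, and was -0.22 without mouse 11. Dnajb1 divided by Dnaja1 in TPM was 1.54, 1.71 and 1.39 at 6 months and 2.05, 1.48 and 1.23 at 24 months, so that the highest and the lowest ratio were both in old mice.

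The Hsp90 proteins mature kinases, steroid receptors and other clients that are already partly folded. Hsp90ab1 (ENSMUSG00000023944.14, chromosome 17 from 45567775 to 45573271, minus strand, up to 11 exons) was at 1402, 1217 and 1176 CPM at 6 months and at 1083, 1041 and 984 CPM at 24 months. Hsp90aa1 (ENSMUSG00000021270.13, chromosome 12 from 110690605 to 110702728, minus strand, up to 11 exons), the inducible paralog, was at 341, 299 and 292 CPM at 6 months and at 249, 263 and 261 CPM at 24 months. Both had every old mouse below every young mouse, by a gap smaller than that between young mouse 10 and the others.

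The log2 fold changes were -0.29 (SE 0.095) for Hsp90ab1 and -0.27 (SE 0.092) for Hsp90aa1. Relative to the genes of at least 50 CPM they were -0.059 and -0.041, and 34.9% and 39.4% of those genes had lower fold changes, so that the Hsp90 genes lay near the middle of the abundant genes. With library totals the values were -0.094 and -0.078 and the ages overlapped. Hsp90aa1 divided by Hsp90ab1 in TPM was 0.187 ± 0.00179 at 6 months and 0.190 ± 0.0137 at 24 months (SD, n = 3), with overlap. Hspa8 divided by Hsp90ab1 was 0.665, 0.782 and 0.698 at 6 months and 0.614, 0.638 and 0.648 at 24 months, with the old mice all lower.

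Hspb1 (ENSMUSG00000004951.10, chromosome 5 from 135887919 to 135889563, plus strand, up to 3 exons), also known as Hsp25, had the lowest fold change and the fewest counts apart from Hspa1b, 23 to 59 a mouse. It was at 1.91, 1.56 and 1.34 CPM at 6 months and at 0.709, 1.13 and 0.793 CPM at 24 months. The log2 fold change was -0.87 (SE 0.26) and lay between -1.05 and -0.73 when any mouse was left out. The old mice all lay below the young ones, mouse 4 by the least.

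The mapping quality filter described for Hspa1a and Hspa1b also applies to reads that fit a member and one of its processed pseudogenes equally. Of all 69-base windows (the read length less the 3 bases that the authors clipped from each end) in the annotated transcripts of a gene, every one was unique to Hsph1 and Dnajb1, and 98.9% were for Hsp90ab1 and 99.8% for Hspa4l. The share was 81.1% for Dnaja1, 65.4% for Hspa8, 56.2% for Hsp90aa1, 53.0% for Hspb1, 42.7% for Hspa1b and 37.2% for Hspa1a. The copies of Hspa8 and Hsp90aa1 named here had few counts beside these genes. Gm15459, which shares 31.2% of the Hspa8 windows, had 42 to 76 counts a mouse against 30919 to 47125 for Hspa8, and Gm12346, which shares 37.5% of the Hsp90aa1 windows, had 64 to 79. For Hspb1 the margin was smaller. Gm9817, which shares 35.1% of its windows, had 2 to 8 counts a mouse, and in mouse 2 it had 8 against 23 for Hspb1. Hsp25-ps1, which shares 47.0% of them, had 0 or 1. The 2 members without any shared window, Hsph1 and Dnajb1, were lower at 24 months by 30.5% and 22.2%.

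**Figure D3:**
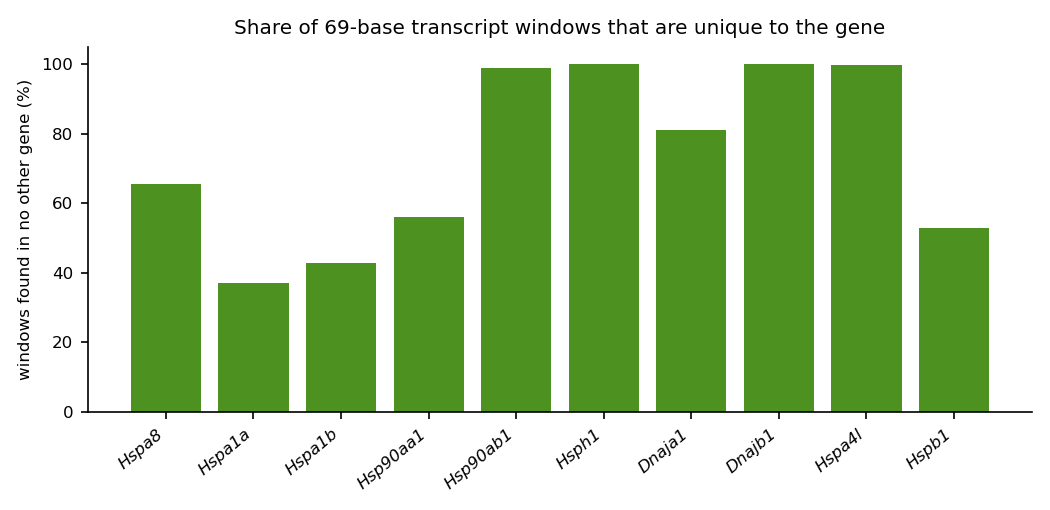
Share of the 69-base windows in the transcripts of each of the 10 genes that occur in no other annotated gene, in percent from 0. Hsph1, Dnajb1, Hspa4l and Hsp90ab1 were near 100%, and Hspa1a and Hspa1b, which share most of their windows with each other, were the lowest.

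The other genes of the chaperone network were taken as 9 lists with 93 genes in all, all of them tested. At 10% FDR in edgeR's quasi-likelihood test, 36 of them (38.7%) were lower at 24 months and 0 higher, and 44 were lower at an unadjusted p under 0.05. The background for lower calls was 8.33% of all genes tested, 17.3% of those of at least 1 CPM and 34% of those of at least 50 CPM, and for higher calls 10% of all genes tested. At an unadjusted p under 0.05, 13.1% of all genes tested were lower and 17.6% higher. Most of the network is abundant, and of its 60 genes of at least 50 CPM 31 (51.7%) were called lower. No gene of any kind passed 1% FDR (0 of 32905), the threshold of the study, in this test, while 1703 did in edgeR's likelihood ratio test and 227 in DESeq2. With library totals as scaling, 7 network genes were called, 6 lower and 1 higher, and without young mouse 10, young mouse 11 or old mouse 4 there were 0.

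The lower calls were the most frequent in the organelle paralogs of the members, with 7 of 8. Hspa5, the Hsp70 protein of the endoplasmic reticulum also known as BiP, was at 702, 732 and 784 CPM at 6 months and at 473, 445 and 428 CPM at 24 months. It fell by 0.72 on the log2 scale (SE 0.087, adjusted p = 0.0313, edgeR), a larger difference than that of any member of at least 50 CPM. Hyou1, the Hsp110 protein of the same compartment, fell by 0.46 (adjusted p = 0.0518, edgeR) and Dnajb11, a J-domain protein there, by 0.39 (adjusted p = 0.0589, edgeR). The members of this list in mitochondria, Hspa9, Trap1 and Dnaja3, and Hsp90b1 of the endoplasmic reticulum were also called, whereas Dnajb9 was not. With library totals as scaling, Hspa5 was the only gene of this list called.

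Among the other Hsp70 and Hsp110 genes 3 of 7 were called lower. Hspa4, an Hsp110 protein, fell from 157 ± 15.8 to 108 ± 19.3 CPM (SD, n = 3; log2 fold change -0.54, edgeR adjusted p = 0.0567), and Hspa13, an Hsp70 protein of the endoplasmic reticulum, from 48.8 ± 1.33 to 34.4 ± 1.26 CPM (-0.50, adjusted p = 0.0518, edgeR). The third was Hspa12a, whose ages overlapped. Of the other J-domain genes 7 of 16 were called lower. Dnajb5, a relative of Dnajb1, fell by 0.74 on the log2 scale (adjusted p = 0.0518, edgeR), with 157, 148 and 155 CPM in the young and 113, 81.4 and 81.3 CPM in the old mice. Dnajc6, or auxilin, the J-domain partner of Hspa8 in stripping clathrin coats, fell from 313 ± 24.6 to 230 ± 22.5 CPM (log2 fold change -0.44, adjusted p = 0.0552, edgeR).

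In the Hsp90 cochaperones 6 of 15 were called lower, with Chordc1 in front. It fell from 98.1, 85.9 and 92.5 CPM to 60.2, 54.7 and 62.6 CPM (log2 fold change -0.64, adjusted p = 0.0514, edgeR). Ppid, a peptidyl-prolyl isomerase, fell by 0.44 (adjusted p = 0.0518, edgeR) and Ahsa2, a relative of the Hsp90 activator Ahsa1, also by 0.44 (adjusted p = 0.0615, edgeR). Of the Hsp70 exchange factors and cofactors 1 of 10 was called, Bag4 (log2 fold change -0.35, adjusted p = 0.0634, edgeR). Bag3, itself known as heat-inducible, had -0.20 (adjusted p = 0.448, edgeR), and Bag2 -0.31 (adjusted p = 0.121, edgeR).

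The chaperonin TRiC, a ring that folds actin and tubulin, and its partner prefoldin had 9 of 15 subunits called lower with TMM scaling. With library totals none of these subunits was called. In the fit with TMM scaling, Cct4 fell by 0.45 (adjusted p = 0.0518, edgeR), Cct8 by 0.41 (adjusted p = 0.0556, edgeR) and the prefoldin subunit Vbp1 by 0.40 (adjusted p = 0.0552, edgeR). Among 8 other heat-inducible genes 3 were called lower. Hspd1, the mitochondrial chaperonin Hsp60, fell from 198 ± 20.7 to 138 ± 4.48 CPM (SD, n = 3; -0.52, adjusted p = 0.0518, edgeR), and Hspe1 was called as well. Dedd2 had -0.34 (adjusted p = 0.101, edgeR) and Serpinh1 -0.37 (adjusted p = 0.169, edgeR).

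None of the 8 other small heat shock genes and none of the 6 genes for heat shock factors and their binding protein was called at 10% FDR in edgeR's test (at an unadjusted p under 0.05, 0 and 1), and none by the likelihood ratio test or DESeq2. These genes were mostly low, with 4 of the 8 and 5 of the 6 at a mean of at least 1 CPM and 1 in each list at 50 CPM or more. With 8.33% of all genes tested called lower, counts of 0 in lists of this size do not set them apart. Cryab, the abundant small heat shock protein of glia, was at 89.8, 106 and 83.5 CPM in the young and at 49.7, 83.7 and 95.6 CPM in the old mice, with overlap. Hspb8, a partner of Bag3, had a log2 fold change of 0.11 and Hspb3 of -0.11, the latter turning to 0.067 with library totals. Hsf1, the factor that drives the heat shock response, was at 51.2, 46.4 and 49.7 CPM at 6 months and at 48.5, 43.1 and 44.1 CPM at 24 months. Its log2 fold change of -0.12 (SE 0.097, adjusted p = 0.426, edgeR) turned to 0.075 with library totals. Hsf4 had 0.25 (adjusted p = 0.187, edgeR) and was called higher with library totals (0.44, adjusted p = 0.0776), with TMM factors from genes of at least 1 CPM (0.41, adjusted p = 0.0917) and without old mouse 5 (0.32, adjusted p = 0.0937). Hsbp1, which binds Hsf1, had -0.27 (adjusted p = 0.146, edgeR).

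**Figure D4:**
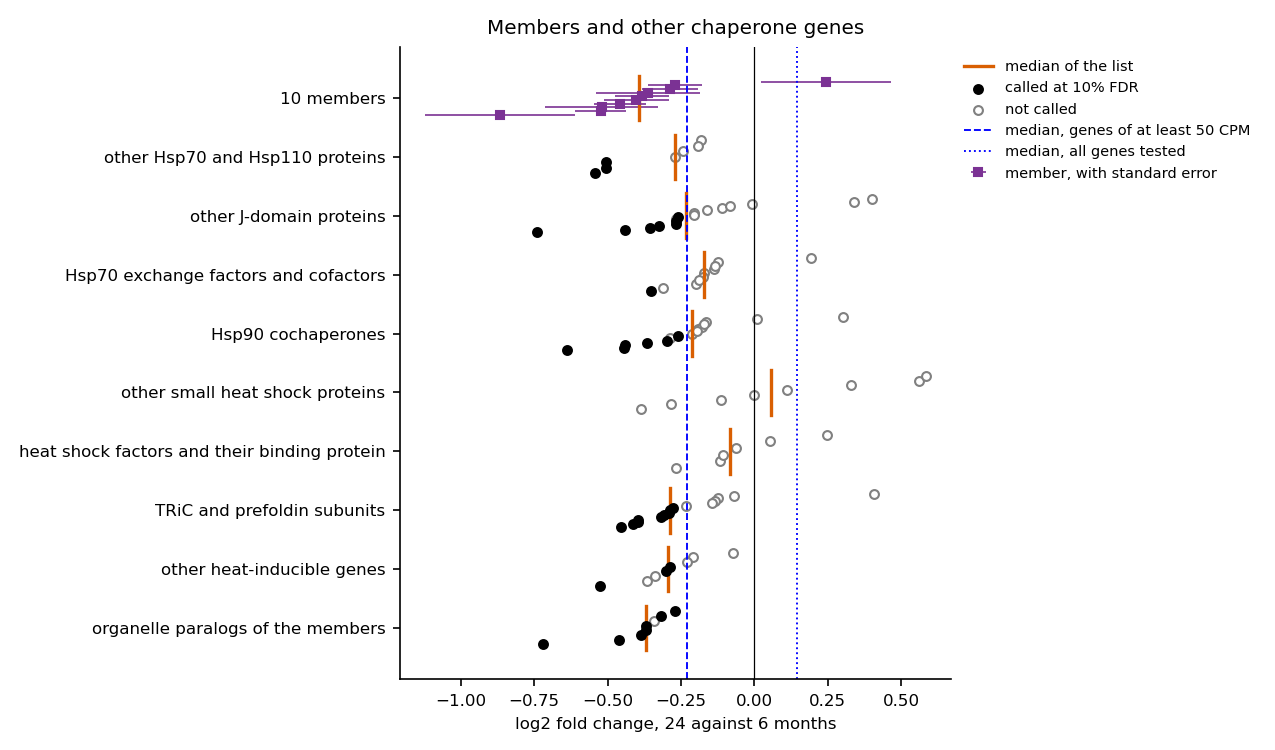
Log2 fold changes (24 against 6 months, TMM scaling) of the 10 members with their standard errors and of the 9 other chaperone lists, filled where called at 10% FDR by edgeR's quasi-likelihood test; orange bars are list medians and blue lines the medians of all genes tested (0.15) and of genes of at least 50 CPM (-0.23). Apart from Hspa1b the members lay left of 0, and the small heat shock proteins and heat shock factors held no filled point.

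The list medians of the log2 fold changes spread around that of the abundant genes. The 10 members were at -0.39, the organelle paralogs at -0.37, the other heat-inducible genes at -0.29, TRiC and prefoldin at -0.29, the other Hsp70 and Hsp110 genes at -0.27 and the J-domain genes at -0.23. The Hsp90 cochaperones (-0.21), the exchange factors (-0.17), the heat shock factors (-0.084) and the small heat shock proteins (0.056) lay above the median of -0.23 for genes of at least 50 CPM. For the last 2 lists that is no like comparison, since 1 gene in each reaches 50 CPM and the median over all genes tested was 0.15. Hspa13, Dnajb5, Ppid, Chordc1, Hspd1 and Hspa5 were the 6 network genes called lower with all 7 other scalings, filters and tests as well. They were less stable to the choice of mice. Of the 6 fits with a mouse left out, Dnajb5, Chordc1 and Hspa5 were called lower in 3 and Hspa13, Ppid and Hspd1 in 2.

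Markers of cell types and of recent neuronal activity differed between these libraries too. Of 8 neuron markers, all of at least 50 CPM, 3 (37.5%) were called lower at 10% FDR and 0 higher (edgeR), near the 34% of all genes of that level. Their summed level was 10464 to 11594 CPM at 6 months and 7801 to 9823 CPM at 24 months, with no marker at 0, and with library totals, an alternative chosen after seeing the data, it overlapped (9847 to 10674 against 8583 to 10187 CPM). The summed CPM of the 10 heat shock genes divided by that sum was 0.379, 0.401 and 0.361 in the young and 0.410, 0.372 and 0.312 in the old mice, with overlap. The part of the neuron share in the members' values was not tested. Summed markers of astrocytes (3121 to 3402 against 3100 to 3535 CPM), microglia (292 to 307 against 272 to 308 CPM), choroid plexus and meningeal fibroblasts overlapped between the ages. With library totals the sums of astrocytes (2953 to 3200 against 3410 to 3666 CPM) and microglia (269 to 288 against 299 to 319 CPM) lay higher in every old mouse. Of the single astrocyte and microglia markers, Gfap and Tmem119 were called higher and Csf1r lower.

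Mouse 2 stood apart from the other old mice. It had 1258 CPM of the 6 oligodendrocyte markers against 3049 and 4051 CPM in mice 4 and 5 and 2367 to 3714 CPM in the young mice, and 147 CPM of the endothelial markers against 233 to 280 CPM in the other 5 mice. It also had the highest value of the old mice in all 15 immediate early genes, which neurons switch on within minutes of firing. Their sum was 4230 CPM in mouse 2 against 1112 and 928 CPM in mice 4 and 5, and 3506, 4073 and 2200 CPM in young mice 10, 11 and 17. Without mouse 2, 9 of the 10 members had all old mice below all young mice, Dnajb1 among them. The same held for 59.2% of all genes of at least 50 CPM, against 54.7% with all 6 mice.

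Of the 10 members, only Dnajb1 and Hspa8 ranked the mice of each age as the summed immediate early genes did. In both, mouse 2 was the highest and mouse 5 the lowest of the old mice, and mouse 11 the highest and mouse 17 the lowest of the young mice. The share of all genes with this order is not given here, so nothing is read from the match. In Hspa8, however, mice 2 and 4 differed by less than 1 CPM, whereas in Dnajb1 mouse 2 lay over 30 CPM above mouse 4. Fos was at 109, 134 and 51.0 CPM in the young and at 125, 21.8 and 18.5 CPM in the old mice, and Arc at 949, 1135 and 508 against 1109, 187 and 155 CPM. These differences between old mice were far larger than that of Dnajb1. Fos, and Junb in the plot of CPM by mouse, were chosen after their values were seen.

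Of these 15 genes only Jun was called (log2 fold change -0.97, adjusted p = 0.0517, edgeR), and Egr1 had -0.998 (adjusted p = 0.117, edgeR) and Arc -0.84 (adjusted p = 0.394, edgeR). Without old mouse 2 both were called, Egr1 at -1.67 and Arc at -2.33 (adjusted p = 0.0661 for each, edgeR). Egr1 was also called with no filter beyond 1 count (adjusted p = 0.0956, edgeR) and by the likelihood ratio test (adjusted p = 0.0631, edgeR), and Jun was not called without young mouse 10, young mouse 11 or old mouse 4 (adjusted p = 0.150, 0.153 and 0.182, edgeR). Young mouse 17 was the lowest of its age in 14 of the 15 immediate early genes and in 9 of the 10 heat shock genes. Young mouse 10 was the highest of its age in 7 of the 10 heat shock genes. The shares of all genes that were lowest in mouse 17 or highest in mouse 10 are not given here. These counts therefore cannot be told apart from an offset of the whole library. The part of neuronal activity in the members' values was not tested.

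**Figure D5:**
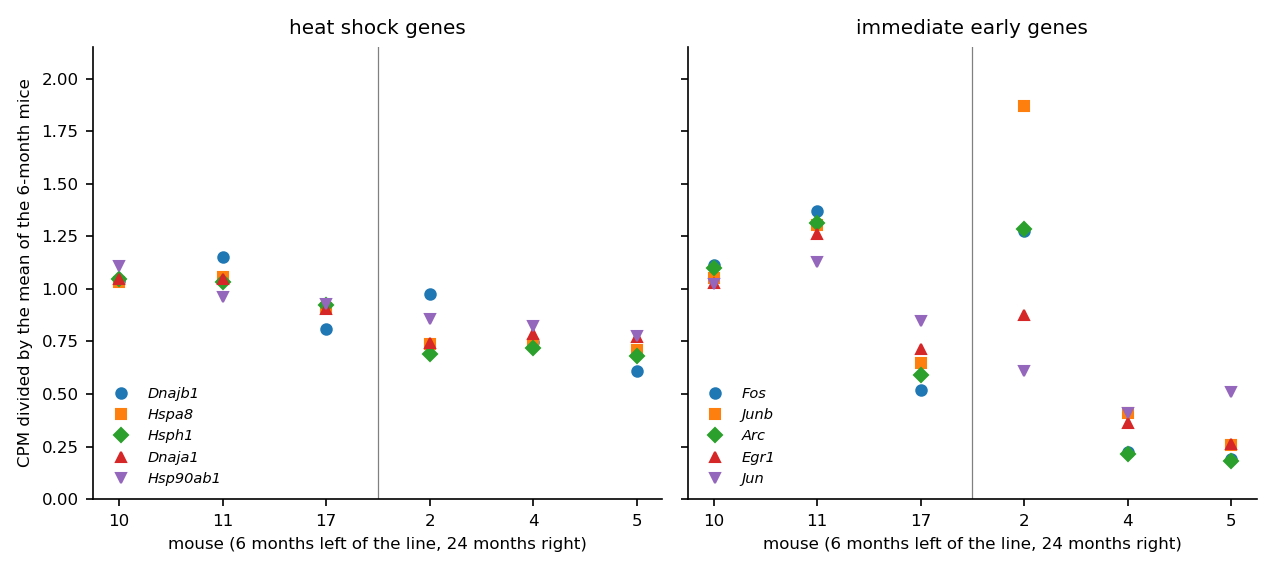
CPM of 5 heat shock genes (left) and 5 immediate early genes (right) in each mouse, divided by the mean of the 6-month mice; both panels share an axis from 0. Mouse 2 was the highest old mouse in all 5 immediate early genes and in Dnajb1, Hspa8 and Hsp90ab1, whereas Hsph1 and Dnaja1 were not highest in it.

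Cold-inducible RNA-binding proteins, which respond to temperature in the opposite sense to heat shock genes, were not called with TMM scaling. Cirbp was at 145 ± 15.6 CPM at 6 months and 159 ± 8.91 CPM at 24 months (SD, n = 3; log2 fold change 0.13, adjusted p = 0.400, edgeR), and with library totals it was called higher (0.32, adjusted p = 0.0879). Rbm3 had -0.10 (adjusted p = 0.547, edgeR), which turned to 0.088 with library totals.

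The genes most like Hspa8 over the 6 mice, by Pearson's r of log2 CPM among 15760 genes of at least 1 CPM, were Cog7 (r = 0.999), Bsdc1, Eif3c, Bub3 and Polr2c. Hsph1 was in place 22 of that order (r = 0.994) and Dnaja1 in place 91 (r = 0.985), while Hsp90ab1 was in place 1647, Dnajb1 in place 4627 and Hspa1b in place 13653 (r = -0.53). When each value was taken as the deviation from the mean of its age, Cog7 was again first (r = 0.999), followed by Lonp1, Nop2, Lin52 and Pbld2, and Hsph1 had r = 0.94 (place 110), Dnaja1 0.89 (place 234), Dnajb1 0.76 and Hspa4l 0.21. With 6 points from the same libraries such coefficients are a description. Hsph1 and Dnaja1 thus tracked Hspa8 from mouse to mouse more closely than the other members did.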

How the data were processed

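The authors trimmed the reads with TrimGalore 0.6.4, mapped them to GRCm38 (GENCODE vM23) with STAR 2.7.3a and counted them on exons without strand with featureCounts (Subread 2.0.0), at a mapping quality of at least 15 and with the options -M and --fraction, which count reads of several places in parts. The deposited count table of each mouse nevertheless held whole numbers (29495379 to 36494240 in total), and the authors made the deposited TPM values from counts and exonic length. Counts were tested here with edgeR 4.0.16 under R 4.3.3. Genes whose counts over all 6 mice summed to 10 or more were kept and scaled by TMM, and the quasi-likelihood test had no covariate and a Benjamini-Hochberg adjustment over all genes, with calls at 10% FDR. The fit was tested on simulated data. Tables were summarised with Python 3.11.15 and pandas 2.3.3. The 10 genes, the gene lists, the 10% threshold and the alternatives were chosen with earlier results of these data known. From each list the 3 genes of at least 1 CPM with the largest absolute log2 fold change were named. Positions are from GENCODE vM21 (GRCm38), in which all 164 genes of the lists matched by identifier. 1 result is not reported here. Mice are separate animals. Alternatives were other scalings, filters and tests (DESeq2 1.42.0 among them), log2(TPM + 1), and each mouse left out in turn.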

Additional observations from a re-analysis of the deposited data

How the results depend on the processing

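Over all genes, 6041 passed 10% FDR, against 4014 without a filter beyond 1 count, 1538 with filterByExpr and 3048 with the Wald test of DESeq2. Network genes called numbered 36, against 7 with library totals, 10 with TMM factors from genes of at least 1 CPM, 19 without the filter, 8 with filterByExpr and 21 with DESeq2. Lower calls over all genes were 2742 of 6041 with TMM factors, 323 of 4436 with library totals and 458 of 4077 with TMM factors from genes of at least 1 CPM. The median log2 fold change of the members was -0.39, against -0.20 with library totals and -0.24 with TMM factors from genes of at least 1 CPM. Under both, 5 members (Hspa8, Hsph1, Dnaja1, Hspa4l and Hspb1) in place of 8 had all old mice below all young mice. Of the genes of at least 50 CPM, 16.1% with library totals and 22.1% with those TMM factors did, against 54.7% in the main fit. Relative to the genes of at least 50 CPM that median stayed between -0.17 and -0.16 with every scaling and filter. These alternatives move the fold changes of all genes by nearly the same amount, so this difference could hardly change and nothing is read from it.

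With each mouse left out in turn, 0 to 7997 genes and 0 to 33 network genes were called (0 network genes without young mouse 10, young mouse 11 or old mouse 4, 3 without old mouse 2, and 21 without young mouse 17). The median of the members ran from -0.47 to -0.30, and 7 to 8 pairs of neighbours in the TPM order did not overlap. In these fits 8 to 9 members had all old mice below all young mice, as had 43.4% to 66.4% of the genes of at least 50 CPM. Relative to the genes of at least 50 CPM the median ran from -0.23 without young mouse 17 to -0.097 without young mouse 11. Directions turned for Hspb3 (0.067 with library totals, 0.032 with TMM from genes of at least 1 CPM, -0.52 to 0.17 with each mouse left out, the latter without old mouse 2), Hsf1 (0.075 and 0.039 with those scalings), Rbm3 (0.088, 0.051 and, with filterByExpr, 0.0093) and Dnaja4 (-0.0056 without young mouse 10, up to 1.10 with another left out), none of them called in any of these fits. No member changed direction in any fit other than Hspa1b, which has the value of the sum, -0.43, when its counts are added to those of Hspa1a. The causes were not tested. No paired analysis was possible because the mouse numbers of the ages differ. With 3 mice an age and 23 to 59 counts a mouse, Hspb1 and Hspa1b are the least certain of the members.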
